A study of Mus musculus with 24 samples.

Results

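The measurement described here is the RNA response of the whole uterus of control mice to 6 hours of progesterone. Its members are the 4 libraries of progesterone-treated floxed control uteri (numbered 1, 2, 7 and 9) and the 4 libraries of vehicle-treated floxed control uteri from the same library batch (numbered 1b, 2, 3 and 4), 8 of the 24 libraries of the series. They were chosen by genotype, treatment and batch from the labels, and by no measured value. All mice were 21-day-old C57bl/6 females. Controls carried Ctcf-f/f, a Ctcf gene flanked by recombination sites, and no Cre recombinase, so no Cre was there to delete Ctcf, which encodes a DNA-binding protein that shapes chromatin loops. Mice received 0.5 mg of progesterone (P4) in 0.05 ml of sesame oil under the skin, or 0.05 ml of oil alone (vehicle, V), and uteri were taken 6 hours later. Of the other 16 libraries, 8 from the same batch were knockouts of the same age, PgreCre+;Ctcf-f/f, in which Cre is driven by the progesterone receptor gene and so deletes Ctcf in receptor-expressing cells. They comprised 4 progesterone and 4 vehicle libraries. The remaining 8 libraries were vehicle samples of a separate batch, 4 from floxed controls and 4 from knockouts.

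Progesterone acts mainly through the progesterone receptor, a transcription factor held by chaperones until the hormone binds and it attaches to DNA. In the uterus it restrains the growth driven by estrogen, readies the epithelium for an embryo and prepares the stroma to decidualize. Epithelial Indian hedgehog signals to the stroma in this program, and the receptor shares its DNA element with the glucocorticoid and mineralocorticoid receptors.

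Levels are batch-corrected RPKM, reads per kilobase of gene scaled to library size, after a correction between batches. Depth was 63000000 to 71800000 reads in the progesterone libraries and 69700000 to 100600000 in the vehicle libraries, as estimated from the steps between low values. Spearman correlations across tested genes were 0.96 to 0.985 within the progesterone group, 0.981 to 0.996 within the vehicle group and 0.938 to 0.972 between them. Muscle, stroma, epithelium, endothelium and leukocyte markers were present in all 8 libraries, with summed levels of 1726 to 2165, 1496 to 1875, 434 to 712, 416 to 492 and 174 to 304 RPKM. None of the 14 endothelial or 13 leukocyte markers tested passed limma's test between groups, and 2 and 0 of them had an unadjusted p under 0.05. The labels do not say whether libraries came from separate animals, so the p-values measure the spread between libraries. For limma this spread is pooled over all 16 libraries of the batch, knockouts included. In bulk tissue, fewer cells of a type and less RNA per cell cannot be told apart.

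Some libraries stood apart. Progesterone library 1 had a summed level of 18.1 RPKM over 22 genes of G2 and mitosis, against 281, 236 and 403 RPKM in progesterone libraries 2, 7 and 9. Vehicle libraries 1b, 2, 3 and 4 had 174, 212, 121 and 116 RPKM. The same progesterone library and vehicle library 4 were high in 9 adipose markers, at 925 and 1074 RPKM, while the other 6 libraries lay between 199.5 and 503 RPKM. Ovgp1, a product of the oviduct, stood at 379.8 RPKM in progesterone library 7 and 145.7 RPKM in vehicle library 3. In the other 6 it lay between -12.3 RPKM and the 0.156 RPKM of progesterone library 2. Values below 0 come from the batch correction, so a value near or below 0 does not show absence. Without both of these libraries 1991 genes were called instead of 3741, and with each single library left out 2694 to 3607 were called. With the adipose score as a covariate, chosen after seeing the data, 3867 were called. The part of these markers in single results was not tested beyond such refits.

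**Figure D1:**
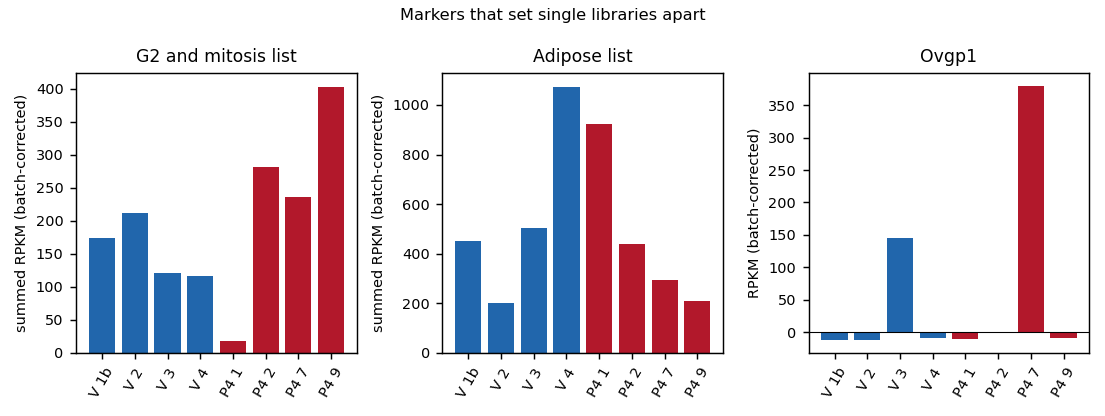
Markers by library. Bars give batch-corrected RPKM, summed over 22 G2 and mitosis genes (left) and 9 adipose genes (middle) and for Ovgp1 alone (right), with vehicle libraries in blue and progesterone libraries in red. Mitotic RNA was lowest in progesterone library 1 (18.1 RPKM), adipose RNA highest in vehicle library 4 and progesterone library 1, and Ovgp1 high in vehicle library 3 and progesterone library 7.

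How far 6 hours of progesterone changed the transcriptome was asked first. Of 22943 genes in the table, 14059 reached 1 RPKM in at least 4 of the 16 libraries of the batch and were tested with limma on log2(RPKM + 0.5), with Benjamini-Hochberg adjustment at 0.05. Of these, 1382 genes were higher after progesterone (9.83%) and 2359 were lower (16.8%), 26.6% in all. Most changes were small, with a median size of 0.51 on the log2 scale among higher genes and 0.48 among lower ones. The strongest changes leaned upward: 234 called genes (1.66%) were at least 2-fold higher and 159 (1.13%) at least 2-fold lower, on this scale. On the RPKM scale, 289 called genes gained 10 RPKM or more and 112 lost as much. Groups did not overlap for 4651 tested genes (33.1%) and for 3290 of the 3741 called. The excess of lower calls depended on scaling. The median log2 fold change of all tested genes was -0.07, and higher calls, 36.9% of calls as reported, made up 49.3% after quantile normalization (1728 higher, 1778 lower) and 52.3% after median centring (1882 higher, 1714 lower).

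**Figure D2:**
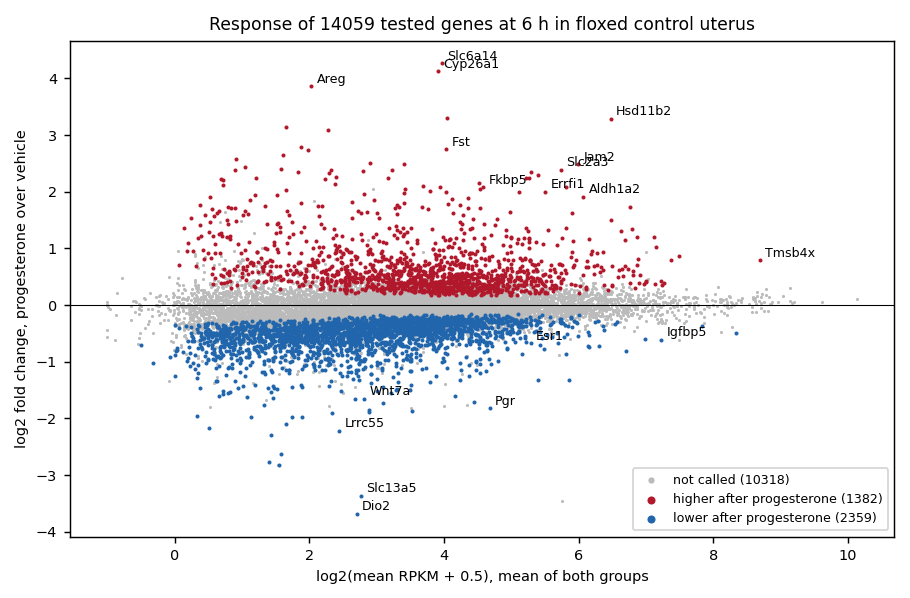
Response of every tested gene. Each point is a gene, with the log2 mean level of both groups on the x axis and the log2 fold change of progesterone over vehicle on the y axis, on the log2(RPKM + 0.5) scale. Red and blue points are the 1382 higher and 2359 lower genes called, grey points were not called, and the highest fold changes exceed 4 log2 units.

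The largest fold changes upward were in genes for transport, retinoid breakdown, growth factors and steroid inactivation. Slc6a14, a transporter of neutral and cationic amino acids, had 23.8, 19.6, 37.2 and 36.3 RPKM in progesterone libraries 1, 2, 7 and 9, and 0.646, 0.83, 1.86 and 0.867 RPKM in vehicle libraries 1b, 2, 3 and 4. The groups were far apart, and the log2 fold change was 4.27 ± 0.25 (SE, adjusted p = 4.18e-08). Cyp26a1, which breaks down retinoic acid, had 26.4, 17.7, 40.5 and 27.8 RPKM after progesterone and 0.806, 0.884, 1.46 and 1.22 RPKM after vehicle, in the same library order as used throughout. Its groups were as far apart, with a log2 fold change of 4.13 ± 0.37 (adjusted p = 2.68e-06). Areg, the EGF receptor ligand amphiregulin, had 8.1, 5.68, 7.65 and 7.1 RPKM after progesterone and -0.0157, 0.0276, 0.0079 and 0.0496 RPKM after vehicle. It was thus near 0 in every vehicle library, where the fold change of 3.86 ± 0.15 (log2, adjusted p = 8.37e-10) depends on the added 0.5 and the gain of 7.11 RPKM does not. Areg reached 1 RPKM in no floxed vehicle library, so it entered the test through progesterone libraries, where it was high.

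Hsd11b2 combined a large ratio with a high level. This enzyme, which inactivates glucocorticoids, had 136, 163, 157 and 186 RPKM after progesterone and 16.3, 17, 11.3 and 20.5 RPKM after vehicle, a log2 fold change of 3.28 ± 0.23 (adjusted p = 2.94e-07). Jam2, a junctional adhesion molecule, had 109.5, 81.3, 122 and 117 RPKM after progesterone and 15.9, 14.5, 24.2 and 21.2 RPKM after vehicle (log2 2.49 ± 0.16, adjusted p = 1.57e-07). Both were several-fold higher in all 4 progesterone libraries. Il13ra2, a decoy receptor for interleukin-13, averaged 29.6 ± 5.72 RPKM after progesterone against 2.55 ± 0.605 RPKM after vehicle (SD, n = 4 each). Fst, encoding the activin antagonist follistatin, had 28.3, 20.4, 30.3 and 32.6 RPKM after progesterone and 2.53, 2.91, 4.4 and 5.36 RPKM after vehicle. The rise was 2.75 ± 0.19 on the log2 scale (adjusted p = 1.93e-07).

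Further down this ranking were Tac2, the precursor of neurokinin B (0.142 to 5.16 RPKM, as means of vehicle and progesterone), the protease inhibitor Spink8 (0.52 to 8.17 RPKM) and Pga5, a pepsinogen (0.405 to 5.96 RPKM). Ms4a8a, Map7d2, Pate4, Ripor2 and Cwh43 completed the 15 highest, with log2 fold changes of 2.73, 2.65, 2.57, 2.51 and 2.49. Ripor2, an inhibitor of the small GTPase RhoA, had narrow groups: its 4 progesterone values lay between 11.8 and 12.7 RPKM and its 4 vehicle values between 1.61 and 1.82 RPKM. Cwh43 was more scattered, since vehicle library 3 had 7.97 RPKM, close to the 9.999 RPKM of progesterone library 2.

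The genes that gained most RPKM differed in kind. Tmsb4x, the actin-binding thymosin beta 4, rose from 300.3 ± 23.9 to 524 ± 83.2 RPKM (log2 0.79 ± 0.20). Others among the 10 largest gains were Hsd11b2, Mt1 (a metal-binding metallothionein, 83 to 193 RPKM), the actin-associated Cnn3 (127 to 233) and Pdlim3 (92.7 to 189.7), Hdc (61.4 to 160.5), Gstm2 (71.1 to 162), Jam2 and Atp1b1. Atp1b1, a beta subunit of the sodium pump, had 123, 103, 162 and 139.9 RPKM after progesterone and 40.6, 41.4, 55.8 and 46.3 RPKM after vehicle. Every progesterone library was above every vehicle library, by 1.499 ± 0.151 on the log2 scale (adjusted p = 7.69e-06). Hdc, which makes histamine, split the progesterone group: libraries 7 and 9 had 214 and 212 RPKM, and libraries 1 and 2 had 106 and 110.1 RPKM.

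The lowest fold changes fell on a thyroid hormone enzyme, solute transporters, a chloride channel subunit and the progesterone receptor itself. Dio2, the deiodinase that makes active thyroid hormone, had -0.336, 1.55, 0.875 and -0.61 RPKM after progesterone and 12.8, 15.8, 10.4 and 7.76 RPKM after vehicle. Values below 0 come from the batch correction and were set to 0 before the logarithm, so the log2 fold change of -3.69 ± 0.42 (adjusted p = 2.21e-05) depends on that step more than does the loss of 11.3 RPKM. Fitted on the RPKM scale without a logarithm, the same loss had an SE of 8.2 RPKM and an adjusted p of 0.349. That SE pools the spread of floxed and knockout libraries, so it is not the spread of the floxed values printed here. The citrate transporter Slc13a5 had 0.501, -0.286, 1.2 and 1.88 RPKM after progesterone and 11, 10.8, 13 and 12.5 RPKM after vehicle (log2 -3.36 ± 0.43, adjusted p = 5.74e-05). Slc40a1, the iron exporter ferroportin, had 1.07, 1.15, 0.995 and 0.775 RPKM after progesterone and 5.48, 5.86, 5.57 and 4.74 RPKM after vehicle (log2 -1.98 ± 0.22, adjusted p = 1.75e-05). In all 3 genes the progesterone values lay far below every vehicle value.

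Lrrc55, an auxiliary subunit of potassium channels, fell from 8.48 ± 0.655 to 1.44 ± 0.257 RPKM (log2 -2.22 ± 0.15, adjusted p = 1.93e-07). Vwa2 fell from 11 ± 1.01 to 2.71 ± 0.379 RPKM (log2 -1.85 ± 0.14, adjusted p = 5.31e-07). Gabrp, the pi subunit of GABA-A receptors, was below 0 in 3 progesterone libraries and at 1.98 RPKM in library 7, against 3.45 to 5.84 RPKM after vehicle. Cdh10, Cntn3, Slc26a7, Hhip, Hddc3, Smim38 and Tmem45b were also among the 15 lowest, with log2 fold changes of -2.76, -2.29, -2.09, -1.98, -1.88, -1.77 and -1.72. Hhip encodes an antagonist of hedgehog ligands.

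**Figure D3:**
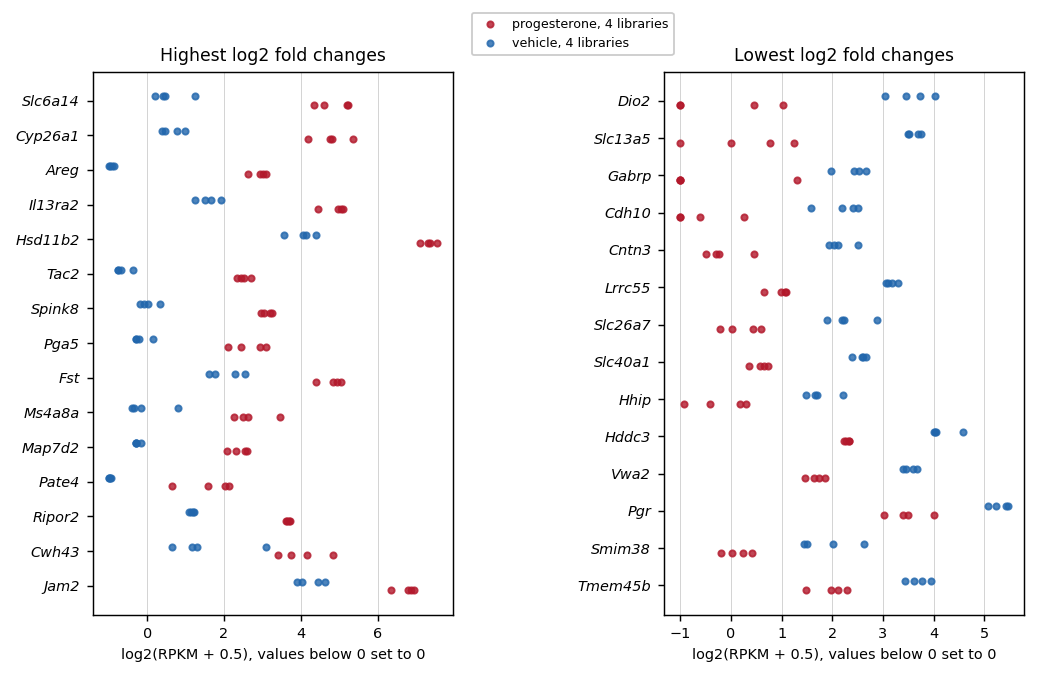
The 15 genes with the highest (left) and 14 of the 15 with the lowest (right) log2 fold changes among called genes whose groups do not overlap. Each point is a library on a log2(RPKM + 0.5) axis, red for progesterone and blue for vehicle. Points at -1 are values of 0 or below; in every row the colours separate, most narrowly for Cwh43.

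The 10 largest falls in RPKM also differed in kind. Igfbp5, which binds insulin-like growth factors, had 108, 132, 115 and 114 RPKM after progesterone and 197, 177, 165 and 183 RPKM after vehicle (log2 -0.62 ± 0.12, adjusted p = 0.00147). Tgfbi, a matrix protein, had 114, 82.2, 117 and 92.8 RPKM after progesterone and 143, 148, 163 and 154 RPKM after vehicle (log2 -0.60 ± 0.14, adjusted p = 0.00532). The groups did not overlap in either gene. The matrix genes Smoc2 and Npnt fell from 98.1 to 59.2 and from 88.4 to 53.3 RPKM. Fbxo32, a ubiquitin ligase subunit of muscle wasting, fell from 58.7 to 24.8 RPKM and Maged2 from 71 to 40.4 RPKM. The other 4 among the 10 were Igfbp4, Lum, Erdr1 and the imprinted RNA H19, and each lost its call when 1 library was left out. Adjusted p reached 0.0566 for Igfbp4 (lost without progesterone library 9 or vehicle library 4), 0.0596 for Lum (without progesterone library 1 or vehicle library 3), and 0.0613 for H19 (without progesterone library 7 or 9). For Erdr1, a gene with near-identical copies whose reads may be split, it reached 0.0885, and the call was kept only without progesterone library 1 or 2.

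Steroid receptors fell in 6 of 12 tested genes and rose in 0, against 16.8% lower and 9.83% higher among all tested genes. The list's median log2 fold change was -0.46, against -0.07 for all genes. Pgr (GRCm38 chr9:8899833-8968611), which encodes the receptor for the injected hormone, had 10.8, 15.5, 10 and 7.68 RPKM after progesterone and 42.6, 43.8, 33.3 and 37.1 RPKM after vehicle. Every progesterone library was far below the lowest vehicle library, with a log2 fold change of -1.82 ± 0.21 (adjusted p = 2.26e-05). Esr1, encoding estrogen receptor alpha, had 27.9, 30, 31.6 and 29.1 RPKM after progesterone and 48.5, 47.4, 46.5 and 48 RPKM after vehicle (log2 -0.67 ± 0.07, adjusted p = 5.39e-06). Its groups were tight and clearly apart. An exact two-sided permutation test over the 70 regroupings of the 8 libraries gave for both Pgr and Esr1 the smallest p that this number of regroupings allows.

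Receptors for other steroids were also lower. Nr3c1, the glucocorticoid receptor, had 12.4, 9.53, 10.5 and 9.44 RPKM after progesterone and 20.4, 19.5, 19.9 and 21.4 RPKM after vehicle (log2 -0.93 ± 0.12, adjusted p = 6.98e-05). The mineralocorticoid receptor Nr3c2 fell from a mean of 2.5 to 1.21 RPKM, and Paqr8, a membrane progesterone receptor, from 4.36 to 2.9 RPKM. Among coregulators and chaperones of these receptors, 3 of 17 tested were higher (17.6%) and 0 were lower, beside 9.83% and 16.8% of all tested genes. Ctcf, which the controls retain, averaged 26 ± 1.05 RPKM after progesterone and 25.5 ± 1.55 RPKM after vehicle (log2 0.03 ± 0.08, adjusted p = 0.853; exact permutation p = 0.686).

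**Figure D4:**
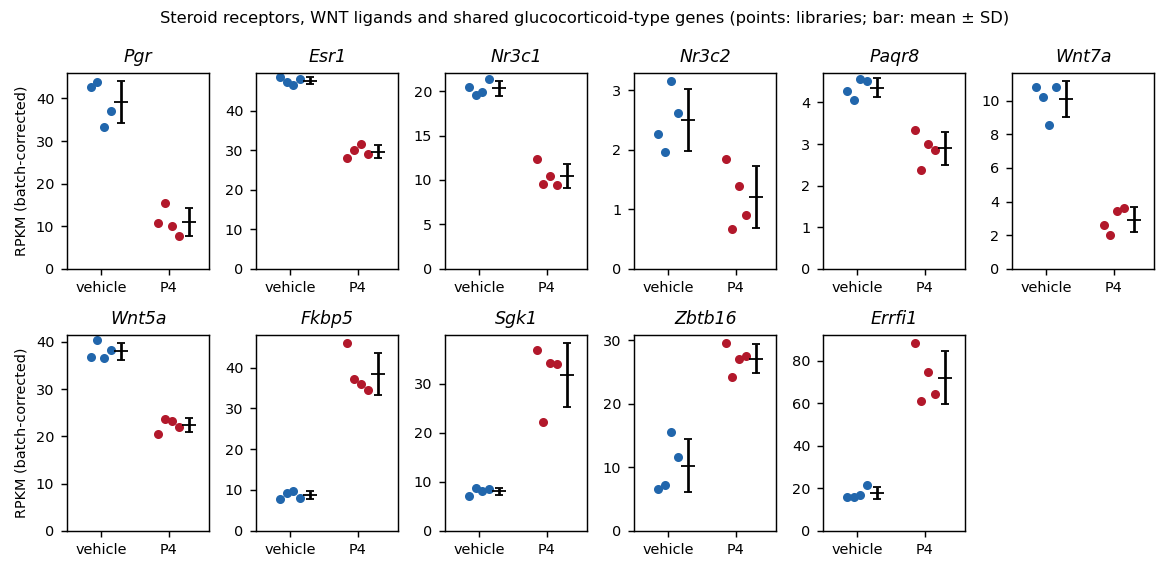
Levels of 11 genes by group. Each point is a library in batch-corrected RPKM from a y axis that starts at 0, with vehicle in blue and progesterone (P4) in red, and the bar beside the points gives the mean and SD of 4 libraries. Pgr, Esr1, Nr3c1, Nr3c2, Paqr8, Wnt7a and Wnt5a are lower and Fkbp5, Sgk1, Zbtb16 and Errfi1 higher after progesterone, with no overlap in any of them.

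Of 30 known progesterone targets 15 were higher and 4 lower, against 9.83% and 16.8% of all genes, with a median log2 fold change of 0.46. The list was chosen with results of these data known, so its direction is no independent evidence. Beside Areg, Fst, Hsd11b2, Cyp26a1, Il13ra2, Tac2 and Hdc, Ihh, the hedgehog ligand of the epithelium, had 18.7, 13.4, 22.3 and 19.4 RPKM after progesterone and 8.07, 7.4, 8.86 and 11.7 RPKM after vehicle (log2 0.99 ± 0.17, adjusted p = 0.000787). With all 24 libraries and a batch term, its fold change was 0.63 and the call was lost (adjusted p = 0.231). Calca, the calcitonin gene, rose from 0.0772 ± 0.0302 to 2.21 ± 0.717 RPKM. Errfi1, an inhibitor of the EGF receptor, had 88.4, 60.9, 74.6 and 64.5 RPKM after progesterone and 16, 15.8, 17 and 21.8 RPKM after vehicle (log2 2.00 ± 0.15, adjusted p = 3.86e-07). Its lowest progesterone value was well above the highest vehicle value.

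Several transcription factors of uterine development were among the risers. Hoxa11 had 125, 97, 99.1 and 109 RPKM after progesterone and 59.7, 59.2, 46.3 and 60 RPKM after vehicle (log2 0.93 ± 0.10, adjusted p = 1.44e-05). Hoxa10 had 115, 94.3, 87.5 and 102 RPKM after progesterone and 65.8, 64, 61 and 65.9 RPKM after vehicle (log2 0.63 ± 0.09, adjusted p = 0.000107). Both are needed for implantation and decidualization, and both were higher in every progesterone library. Gata2, which acts upstream of and with the receptor, went from 76.1 ± 5.74 to 118 ± 12.7 RPKM, and Sox17 from 34.1 ± 2.87 to 48.3 ± 8.9 RPKM (log2 0.62 and 0.48). The call of Sox17 was lost with all 24 libraries (adjusted p = 0.0779) and without both libraries high in Ovgp1 (adjusted p = 0.0535). Hand2, a stromal mediator of progesterone, averaged 42.4 ± 4.61 RPKM after progesterone and 37.2 ± 2.47 RPKM after vehicle and did not pass the test (adjusted p = 0.251). In the wider list of uterine transcription factors 6 of 29 were higher (20.7%) and 4 lower (13.8%), against 9.83% and 16.8% of all tested genes.

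Genes that the glucocorticoid receptor and its relatives commonly induce formed the list with the largest share of higher calls among those in the plot of list shares. Of 21 tested members 16 were higher (76.2%) and 1 was lower (4.76%), against 9.83% and 16.8% of all tested genes. The list's median log2 fold change was 0.72. With each library left out in turn, 13 to 17 were higher. Fkbp5, a cochaperone of steroid receptors, had 46, 37.1, 35.9 and 34.5 RPKM after progesterone and 7.75, 9.34, 9.7 and 7.99 RPKM after vehicle (log2 2.08 ± 0.22, adjusted p = 1.1e-05). Sgk1, a kinase that raises sodium transport, had 36.8, 22.2, 34.2 and 33.9 RPKM after progesterone and 7.04, 8.71, 8.07 and 8.42 RPKM after vehicle (log2 1.89 ± 0.17, adjusted p = 2.98e-06). Both groups of values were several-fold apart. The zinc finger gene Zbtb16 had 29.7, 24.2, 27.1 and 27.6 RPKM after progesterone and 6.65, 7.28, 15.5 and 11.6 RPKM after vehicle (log2 1.43 ± 0.26, adjusted p = 0.000988), and lost its call with all 24 libraries and a batch term (log2 1.64, adjusted p = 0.113). Klf15 rose from 5.46 ± 1.17 to 14 ± 1.92 RPKM and Hif3a from 5.13 ± 1 to 13 ± 3.7 RPKM. Tsc22d3, the leucine zipper protein GILZ, which was chosen after its values were seen, rose from 30.3 ± 4.97 to 49.5 ± 7.63 RPKM. Klf9 averaged 43.2 ± 12 and 36.4 ± 1.73 RPKM and did not pass the test (adjusted p = 0.32). Its one high value, 60.9 RPKM, came from progesterone library 1, while the other 7 libraries lay between 34.4 and 39.0 RPKM.

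The element shared by these receptors is a palindrome, and its core can be written GNACANNNTGTNC, which reads the same on both strands. It was searched in the 250 bases before each gene start in RefSeq promoters (GRCm38.p6). Of 27025 gene symbols with a promoter, 119 (0.44%) held it. Among genes called at least 2-fold higher, 6 of 175 with a promoter held it (3.429%), against 5 of 913 other higher genes (0.548%), 8 of 1835 lower genes (0.436%) and 21 of 8141 genes not called (0.258%). A match is a description of the letters, and binding was not measured. The 6 genes were Sgk1, Mt1, Fam107a, Fyb2, Serpina3n and Suox, of which the last 4 were chosen after their values were seen. Their log2 fold changes were 1.89, 1.21, 1.97, 2.13, 1.62 and 1.88.

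Promoters of 3 of them are given to show how the match sits in differing surroundings, 5′ to 3′ on the gene's strand, with the palindrome in capitals. They lie at chr10:21993640-21993889 (forward strand) for Sgk1, chr8:94178839-94179088 (forward strand) for Mt1 and chr14:8309780-8310029 (reverse strand) for Fam107a, all in GRCm38.p6. The palindrome begins 188, 94 and 118 bases before the RefSeq start used, respectively, which for Sgk1 and Fam107a is not the only annotated start.
Sgk1: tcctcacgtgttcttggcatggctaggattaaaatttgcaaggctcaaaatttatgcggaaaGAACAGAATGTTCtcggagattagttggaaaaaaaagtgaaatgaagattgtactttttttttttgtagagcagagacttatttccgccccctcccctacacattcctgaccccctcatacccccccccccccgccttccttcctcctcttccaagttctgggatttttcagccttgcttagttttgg
Mt1: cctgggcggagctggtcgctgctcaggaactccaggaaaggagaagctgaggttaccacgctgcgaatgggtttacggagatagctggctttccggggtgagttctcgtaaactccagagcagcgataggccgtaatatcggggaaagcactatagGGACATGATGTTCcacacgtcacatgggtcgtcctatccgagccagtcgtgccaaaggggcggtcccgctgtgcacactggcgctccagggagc
Fam107a: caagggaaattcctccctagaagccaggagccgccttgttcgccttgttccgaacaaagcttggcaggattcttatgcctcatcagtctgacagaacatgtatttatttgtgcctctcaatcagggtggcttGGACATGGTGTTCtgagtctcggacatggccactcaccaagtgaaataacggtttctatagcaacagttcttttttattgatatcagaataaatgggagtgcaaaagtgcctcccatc
Fam107a, the gene of an actin-binding protein, had 6.68, 5.3, 29.1 and 27.7 RPKM after progesterone and 2.42, 2.34, 4.66 and 2.91 RPKM after vehicle. Libraries 7 and 9 were far above libraries 1 and 2, the same division as for Hdc. Fyb2, encoding an adaptor protein, had 8.81, 7.65, 9.67 and 6.06 RPKM after progesterone and 1.46, 1.26, 1.58 and 1.39 RPKM after vehicle and was evenly higher. Mt1 had 190.1, 169, 229 and 184 RPKM after progesterone and 76.2, 78.9, 89.3 and 87.7 RPKM after vehicle, also without overlap.

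WNT ligands and targets moved the other way. Of 26 tested, 0 were higher and 12 were lower (46.2%), against 9.83% and 16.8% of all tested genes. The list's median log2 fold change was -0.37, against -0.07 for all genes. With each library left out in turn, 10 to 15 were lower. Wnt7a, a ligand of the uterine epithelium that is needed for glands to form, had 2.62, 2.01, 3.47 and 3.63 RPKM after progesterone and 10.8, 10.2, 8.56 and 10.8 RPKM after vehicle (log2 -1.65 ± 0.24, adjusted p = 0.000192). The stromal ligand Wnt5a had 20.4, 23.7, 23.3 and 21.9 RPKM after progesterone and 36.7, 40.4, 36.5 and 38.4 RPKM after vehicle (log2 -0.75 ± 0.07, adjusted p = 2.46e-06). All progesterone libraries were below all vehicle libraries in both. Wnt7b, Wnt16 and Wnt6 fell too, with log2 fold changes of -1.47, -1.32 and -1.27. Lgr5, a receptor that amplifies WNT signals, fell from 10.7 ± 0.704 to 5.9 ± 0.56 RPKM, although with all 24 libraries its fold change was -0.37 and not called (adjusted p = 0.462). Notum, a feedback inhibitor that WNT signalling induces, fell from 7.79 ± 1.7 to 3.02 ± 0.926 RPKM. Axin2, the most widely used readout of WNT signalling, averaged 15.7 ± 2.08 against 18.9 ± 1.05 RPKM, with adjusted p = 0.0798. Without progesterone library 1 it was called lower (log2 -0.33, adjusted p = 0.0404).

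Hedgehog genes changed in both directions, with 5 of 16 higher and 5 lower (31.2% each), against 9.83% and 16.8% of all tested genes. The ligand Ihh rose, as did Boc, a coreceptor, from 10.4 ± 1.02 to 16.7 ± 2.25 RPKM. Hhip, the ligand-binding inhibitor, had 0.254, 0.63, 0.732 and 0.0268 RPKM after progesterone and 2.29, 2.68, 2.75 and 4.14 RPKM after vehicle. Disp1, which releases the ligand from cells, fell from 5.55 ± 0.397 to 3.89 ± 0.102 RPKM. Gli1, a transcription factor that is itself a target of the pathway, had 65.2, 51.8, 52.4 and 51.5 RPKM after progesterone and 49.9, 53, 49.9 and 60.1 RPKM after vehicle, overlapping groups with a log2 difference of 0.05 ± 0.13 (adjusted p = 0.816). It was -0.032 without progesterone library 1. Ptch1, the receptor and also a target gene, was chosen after its values were seen. It had 19.4, 17, 19.6 and 16.4 RPKM after progesterone and 24.1, 23.2, 30.2 and 39.5 RPKM after vehicle and was called lower (log2 -0.65 ± 0.20, adjusted p = 0.0273). Its call was lost without progesterone library 2 or 9 or vehicle library 3 or 4, with adjusted p up to 0.0933. The list's counts moved with single libraries: 3 were higher without progesterone library 1, progesterone library 2 or vehicle library 3, and the lower genes were 2 without progesterone library 9, 3 without vehicle library 1b or 3, and 1 without vehicle library 4. Without both libraries high in Ovgp1, 2 were higher and 1 lower.

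In the activin system Fst and Fstl3, 2 secreted antagonists, were higher, and Inhba, the activin A subunit, was among 4 lower genes of 11 tested, with the inhibin subunit Inha and the receptors Acvr1 and Acvr2b. These shares of 18.2% higher and 36.4% lower compare with 9.83% and 16.8% of all tested genes. Fstl3 had 25.6, 20, 20.6 and 20.8 RPKM after progesterone and 10.1, 10.8, 8.84 and 12.3 RPKM after vehicle (log2 1.02 ± 0.10, adjusted p = 5.39e-06). Inhba had 0.372, 0.908, 0.435 and 0.38 RPKM after progesterone and 1.84, 1.99, 2.12 and 1.54 RPKM after vehicle (log2 -1.24 ± 0.15, adjusted p = 3.75e-05). The 2 antagonists stayed higher with each library left out, while the lower count was 1 without progesterone library 9 and 2 without vehicle library 2, 3 or 4. Without both libraries high in Ovgp1 it was 0, and after quantile normalization it was 2. Of 11 EGF family genes tested, 3 were higher (Areg, Hbegf and Errfi1) and 2 lower (the receptor Erbb2 and Lrig3). These were 27.3% and 18.2%, against 9.83% and 16.8% of all tested genes, the second share being near its background. Hbegf, an EGF receptor ligand, had 13.1, 7.95, 8.85 and 6.92 RPKM after progesterone and 4.29, 4.53, 4.05 and 4.55 RPKM after vehicle (log2 0.96 ± 0.16, adjusted p = 0.000403).

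Among 20 tested genes of FGF signalling 3 were higher (15%) and 7 lower (35%), beside 9.83% and 16.8% of all tested genes. The receptor Fgfr3 was among the higher, and the receptor Fgfr2, the inhibitors Spry1, Spry2 and Spred1 and the target gene Etv4 were among the lower. Fgf18 fell from 3.88 ± 0.2 to 1.89 ± 0.229 RPKM and Fgf9, at a low level, from 0.747 ± 0.0342 to 0.166 ± 0.124 RPKM, while Fgf10 went from 4 ± 0.122 to 5.57 ± 0.805 RPKM. These 3 genes encode ligands exchanged between stroma and epithelium. The call of Fgf9 was lost after quantile normalization (adjusted p = 0.0827), and that of Fgf10 with all 24 libraries (adjusted p = 0.12) and without both libraries high in Ovgp1 (adjusted p = 0.0798). The number of lower genes was 4 without progesterone library 2 or 9 or vehicle library 3. Igf1, the growth factor that estrogen induces in stroma, had 47.3, 57.6, 50.9 and 52.1 RPKM after progesterone and 34.5, 31.2, 29.2 and 29.8 RPKM after vehicle (log2 0.73 ± 0.20, adjusted p = 0.0139). Without both libraries high in Ovgp1 its adjusted p was 0.0693.

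Retinoic acid genes that rose acted at both ends of the pathway: Aldh1a2 makes the acid and Cyp26a1 removes it. Aldh1a2 had 69.9, 99.7, 112 and 143 RPKM after progesterone and 26.1, 25.9, 24.6 and 31.3 RPKM after vehicle (log2 1.92 ± 0.19, adjusted p = 5.39e-06), with every progesterone library far above every vehicle library. Aldh1a1 rose from 12.2 ± 2.04 to 20.8 ± 6.69 RPKM. Rdh10, which makes retinal, had a log2 fold change of 0.59 ± 0.17 (adjusted p = 0.0207) that was lost without progesterone library 1 or 7 or vehicle library 1b or 2, with adjusted p up to 0.064. The receptor Rarg fell from 26.6 ± 1.16 to 20 ± 2.92 RPKM. In all 5 of 17 tested were higher (29.4%) and 2 lower (11.8%), beside 9.83% and 16.8% of all tested genes. The higher genes were 3 without progesterone library 1 or vehicle library 1b or 2, and the lower ones were 4 without progesterone library 1, 3 without progesterone library 2 and 1 without any one of progesterone libraries 7 and 9 or vehicle libraries 1b, 2 and 3.

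Solute carriers and metabolic genes rose in part. Of 22 carriers tested 8 were higher (36.4%) and 3 lower (13.6%), beside 9.83% and 16.8% of all tested genes. With each library left out, 7 or 8 were higher. Slc2a3, a glucose transporter, had 107, 76.3, 87.3 and 85.4 RPKM after progesterone and 13.7, 14.8, 22 and 16.5 RPKM after vehicle (log2 2.39 ± 0.25, adjusted p = 1.12e-05). Slc2a1, the other widespread glucose transporter, had 26.3, 23.3, 27.2 and 31 RPKM after progesterone and 12.6, 14.1, 15.8 and 13.2 RPKM after vehicle (log2 0.92 ± 0.12, adjusted p = 7.02e-05). Every progesterone library exceeded every vehicle library in both. The arginine and lysine transporter Slc7a1 rose from 10.8 ± 1.44 to 16.6 ± 1.4 RPKM. Of 21 ribosome biogenesis genes tested 14 were higher (66.7%) and 0 lower, against the same shares of all tested genes. Their median log2 fold change was 0.46. Nop56 had 55.6, 67.3, 66.6 and 69.9 RPKM after progesterone and 44.7, 46.2, 29.1 and 37.6 RPKM after vehicle (log2 0.73 ± 0.18, adjusted p = 0.00678). Nolc1, a nucleolar protein, had 33.7, 32.9, 34.8 and 34.8 RPKM after progesterone and 23.3, 24.6, 16.1 and 21.3 RPKM after vehicle (log2 0.68 ± 0.13, adjusted p = 0.00173). Vehicle library 3 was the lowest of the 8 in both genes. Without it and progesterone library 7, both high in Ovgp1, 6 of these genes were higher and Nop56 lost its call (adjusted p = 0.0577). With all 24 libraries 7 were higher. Myc, a driver of ribosome synthesis, averaged 46.5 ± 4.87 and 38.4 ± 5.71 RPKM (adjusted p = 0.057). It was called higher with median centring (adjusted p = 0.0184) and without progesterone library 9 or vehicle library 1b or 2 (adjusted p = 0.0387 to 0.0479).

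**Figure D5:**
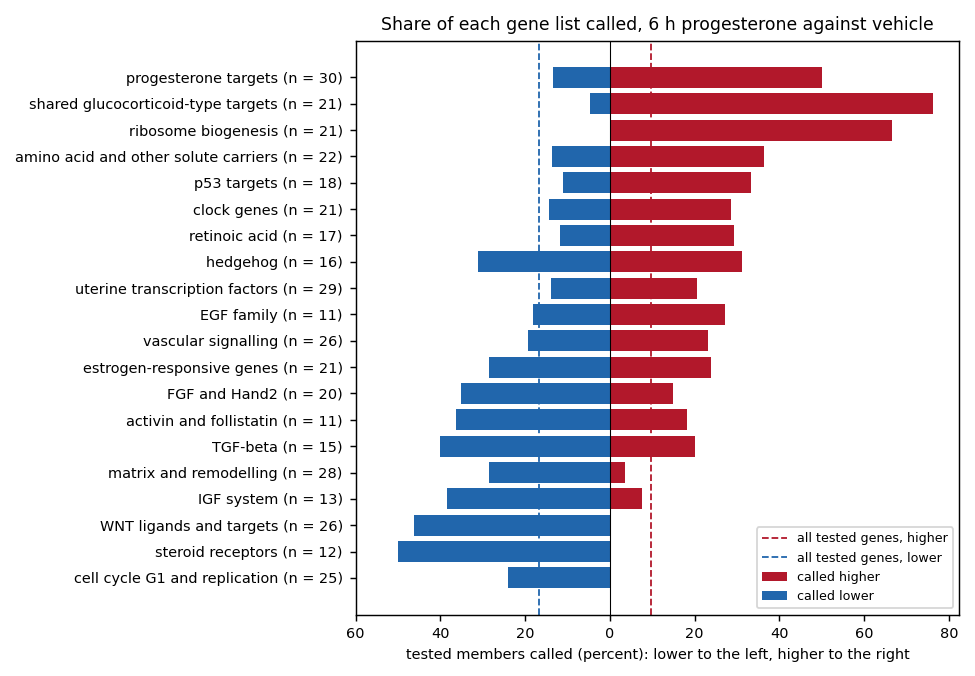
Share of tested members called, by gene list. Bars to the right give the percent called higher and bars to the left the percent called lower, with the number tested in parentheses, and dashed lines mark the shares over all 14059 tested genes (9.83% and 16.8%). Glucocorticoid-type genes, ribosome biogenesis and progesterone targets extend farthest right, and steroid receptors and WNT genes farthest left.

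Cell cycle genes could not be read apart from progesterone library 1. Of 25 genes of G1 and replication 0 were higher and 6 lower (24%), against 9.83% and 16.8% of all tested genes. Their median log2 fold change was -0.83, but without that library 0 were called. The lower genes were 10 without progesterone library 2 and 0 without progesterone library 9 or vehicle library 1b or 2. They were 1 without progesterone library 7 or vehicle library 4, and 3 without vehicle library 3. Scaling moved the counts too, to 1 higher and 2 lower after quantile normalization and 1 and 1 after median centring. With only the 8 floxed libraries 0 were higher and 1 lower. Mcm2, part of the replicative helicase, had 6.33, 26.8, 12.1 and 15.6 RPKM after progesterone and 31.6, 39.5, 20.1 and 22.9 RPKM after vehicle, with adjusted p = 0.0494. It was lost without any one library other than progesterone library 2 (adjusted p up to 0.146). Ccnd1, encoding cyclin D1, had 28.8, 31.3, 31.9 and 25.8 RPKM after progesterone and 47.4, 48.4, 36.7 and 41.9 RPKM after vehicle (log2 -0.55 ± 0.18, adjusted p = 0.0291). Its groups did not overlap, and its call was lost without progesterone library 1 or 9 or vehicle library 1b, 2 or 4 (adjusted p up to 0.0846). Of 22 genes of G2 and mitosis 0 were called by limma, with 0 at an unadjusted p under 0.05, and 3 were higher without progesterone library 1. Mki67, a marker of cycling cells, had 0.423, 22, 17.3 and 32.4 RPKM after progesterone and 15.2, 18, 10.9 and 8.89 RPKM after vehicle, and Top2a had -0.654, 33.2, 25.3 and 43.4 and 21.4, 28.1, 15 and 12.3 RPKM. Progesterone library 1 was near 0 in both, while the other 3 progesterone libraries overlapped the vehicle range or exceeded it. Cdkn1a, a cell cycle inhibitor, rose from 4.1 ± 0.717 to 7.22 ± 2.02 RPKM (log2 0.72 ± 0.17, adjusted p = 0.00637). The call was lost on the RPKM scale (adjusted p = 0.436), with all 24 libraries (adjusted p = 0.084) and without both libraries high in Ovgp1 (adjusted p = 0.0657).

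Clock genes were called higher in 6 of 21 (28.6%) and lower in 3 (14.3%), against 9.83% and 16.8% of all tested genes. Npas2, a close relative of CLOCK that can take its place, had 10.4, 6.57, 10.7 and 9.17 RPKM after progesterone and 2.27, 2.07, 2.41 and 2.11 RPKM after vehicle (log2 1.82 ± 0.15, adjusted p = 1.38e-06). Nfil3, a repressor, had 22, 17.1, 18.5 and 18.6 RPKM after progesterone and 4.98, 4.64, 4.82 and 7.22 RPKM after vehicle (log2 1.74 ± 0.16, adjusted p = 3.93e-06). Both were clearly higher in each progesterone library than in any vehicle library. Per1 went from 23.1 ± 2.46 to 31.3 ± 4.23 RPKM, a call lost without progesterone library 1 (adjusted p = 0.0511) or vehicle library 3 (adjusted p = 0.0593). Without vehicle library 3 the counts were 3 higher and 0 lower. The labels give no hour of day for the injections. The estrogen-responsive list had 5 of 21 members higher (23.8%) and 6 lower (28.6%), set beside 9.83% and 16.8% of all tested genes. Greb1, induced by estrogen and by progesterone, had 10.2, 9.87, 17.9 and 6.59 RPKM after progesterone and 1.21, 2.06, 2.59 and 1.03 RPKM after vehicle (log2 2.36 ± 0.33, adjusted p = 0.000122).

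The response was compared with that of the Ctcf knockouts of the same batch. In the knockouts 612 genes were higher (4.35%) and 617 lower (4.39%). Of the 3741 genes called in floxed uteri, 3125 had the same sign in knockouts, 758 were called there in the same direction and 24 in the other. Sign agreement was not counted over all tested genes, so the 3125 have no background share to be read against. The difference of the 2 responses was called for 421 tested genes (2.99%), of which 352 (2.5% of tested genes) were also called in floxed uteri. Fst went from 1.84 ± 0.209 to 1.5 ± 0.233 RPKM in knockouts, and the response was larger in floxed uteri by 2.98 ± 0.27 on the log2 scale (adjusted p = 4.79e-05). Areg went from 0.289 ± 0.157 to 1.68 ± 0.363 RPKM (difference 2.39 ± 0.22, adjusted p = 4.79e-05), Adamts15, a matrix protease, differed by 1.83 ± 0.19 and Pknox2, a homeobox factor, by 1.19 ± 0.11. Pknox2 rose in floxed uteri from 11 ± 0.25 to 27.3 ± 3.37 RPKM and Adamts15 from 5.32 ± 0.436 to 24.5 ± 4.3 RPKM. Sh3gl2 and Sfi1 fell in floxed uteri, from 7.7 ± 1.09 to 2.34 ± 0.126 and from 21.9 ± 2.07 to 9.99 ± 1.53 RPKM, and their responses differed by -1.44 ± 0.14 and -1.47 ± 0.16. Gli1 went from 22.6 ± 0.95 to 48.1 ± 9.85 RPKM in knockouts (log2 1.05 ± 0.13, adjusted p = 0.00014). The mean of Ptch1 went from 9.36 ± 1.43 to 16.5 ± 5.41 RPKM there, and no test of that knockout rise is given here. Both hedgehog targets had lower vehicle levels in knockouts than in floxed uteri. For Slc6a14, Il13ra2, Fkbp5 and Esr1 the responses in floxed and knockout uteri were 4.27 and 3.85, 3.30 and 3.44, 2.08 and 2.10, and -0.67 and -0.60, and their differences did not pass the test (adjusted p from 0.594 to 0.985). The number of genes with a called difference was 230 to 503 with each floxed library left out, lowest without vehicle library 4, and was also low without vehicle library 1b (254), 2 (260) or 3 (252).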

How the data were processed

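RNA of mouse uterus was sequenced in bulk, from Trizol extracts cleaned with DNase and made into Illumina TruSeq libraries (per the labels' protocols). The submitters' processing notes name mm10, cutadapt 2.7, TopHat and Partek. The counting step, its strand setting and the correction tool are each not given in the sources used here. So reads of overlapping or antisense genes cannot be told apart. The authors deposited batch-corrected RPKM, another unit than counts or plain RPKM, for 22943 genes, and 6.66% of values lie below 0. In 4008 genes, 5 of them tested, libraries tied at the lowest value show 1 constant added per gene in the batch. For the other tested genes no constant could be read, and each fold change depends on what was added.

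Values below 0 were set to 0 (0.174% of tested values) and log2(RPKM + 0.5) was fitted in limma 3.58.1 under R 4.3.3, using eBayes with its trend and robust options. The fit held the 16 libraries of the mixed batch as 4 groups (residual degrees of freedom 12, prior ones 3.47 at the median). A fold change on this scale understates the change of low genes. Genes had to reach 1 RPKM in at least 4 of the 16 libraries. As 4 is the size of a group, a gene could pass through progesterone libraries alone. Areg, Tac2, Spink8, Pga5 and Calca averaged under 1 RPKM in floxed vehicle libraries. For such genes filter and test are not independent, so their adjusted p-values and ranks are no independent support. Tests were two-sided, and groups come from the labels. The fit was tested on simulated data with noise drawn independently for each gene. It called 85 of 100 genes changed by 1 log2 unit, 97 of 100 changed by 2, and 11 of 13859 unchanged genes. Such noise lacks the shifts that many genes of a library share here, so these rates do not carry over to the real data. Depth was read from the steps of low values. No pair of floxed libraries of the batch was alike within sampling noise. Gene positions are those of GENCODE M21 (GRCm38).

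Members, gene lists and alternatives were chosen with earlier results of these data known. Lists are described by counts beside all tested genes. Named genes are the 15 that rose and the 15 that fell by the largest log2 fold change, if called, without overlap between groups, averaging 2 RPKM or more on their higher side, and not named as gene predictions. To these come the 10 largest rises and 10 largest falls in RPKM, Pgr, Esr1, Ctcf, Ovgp1 and Krt5, up to 8 called members per list with the smallest adjusted p, members not called, and up to 10 genes for the genotype difference. Of the 112 genes with values in the text, 6 lie outside this rule and are marked as chosen after their values were seen. For a few genes chosen this way, values are not reported here.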

Additional observations from a re-analysis of the deposited data

Results flagged for a closer look

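The values of a group of 4 were searched for a library whose gap to its nearest neighbour, as a share of the group's range, exceeded Dixon's 95% critical value. This was done for each gene named and for 9 lists, in both floxed groups. Chance alone would mark about 1 in 20 such sets, and 21 of 242 were marked. In the progesterone group library 1 was apart, and high, for Calca (0.899 of the range), Fstl3 (0.869), Gli1 (0.936), Klf9 (0.853) and Rarg (0.915). Library 2 was high for Igfbp4 (0.853) and Inhba (0.884), and library 7 for Gabrp (0.983), Wnt7b (0.838) and the oviduct list (0.942). In the vehicle group library 3 was high for Cwh43 (0.873), Lum (0.863), Map7d2 (0.866), Ms4a8a (0.855) and Pga5 (0.843), and low for Hoxa11 (0.937) and Wnt7b (0.849). Vehicle library 4 was high for Disp1 (0.861), Nfil3 (0.869) and Smoc2 (0.836), and library 1b for Hddc3 (0.941). The progesterone and vehicle values of Calca, Fstl3, Hoxa11, Wnt7b and Cwh43 still did not overlap.

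For 40 of the 112 genes named, the responses of floxed and knockout uteri differed by the limma test of the difference itself. Over all tested genes the share was 2.99%. Many genes were named for a large floxed response and some for this difference, so the count of 40 is no independent evidence. The values that follow are the floxed log2 fold change less that of the knockouts. Among genes higher in floxed uteri, the difference was 3.2 for Cyp26a1, 2.98 for Fst, 2.53 for Pate4, 2.51 for Tac2, 2.39 for Areg, 2.1 for Hsd11b2, 2.0 for Ripor2, 1.91 for Aldh1a2, 1.9 for Calca, 1.85 for Greb1, 1.83 for Adamts15 and 1.78 for Npas2. It was 1.33 for Pga5, 1.19 for Pknox2, 1.18 for Igf1, 1.11 for Errfi1, 1.07 for Jam2, 1.04 for Map7d2, 1.01 for Suox, 0.96 for Nfil3, 0.92 for Hbegf, 0.73 for Fgf10, 0.62 for Fstl3 and 0.55 for Cnn3. Among genes lower in floxed uteri it was -3.0 for Slc13a5, -1.72 for Smim38, -1.68 for Vwa2, -1.6 for Wnt6, -1.47 for Lgr5, -1.47 for Sfi1, -1.44 for Sh3gl2, -1.44 for Tmem45b, -1.43 for Cntn3, -1.39 for Ptch1, -1.27 for Lrrc55, -1.17 for Notum, -0.84 for Tgfbi and -0.57 for Wnt5a. Gli1, not called in floxed uteri, differed by -1.0. Hhip differed by -1.98, but its knockout means were below 0 after both treatments, so the knockout response was set to 0 by construction.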

How the results depend on the processing

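Pgr and Esr1 fell in every alternative run, with Pgr between -2.02 and -1.67 and Esr1 between -0.74 and -0.62 on the log2 scale. The number of genes called was most changed by array weights (6617 called, 2421 higher and 4196 lower, and 4975 genes with a genotype difference) and by leaving out both libraries high in Ovgp1 (1991 called, 700 higher and 1291 lower, and 179 with a genotype difference). A filter of 5 RPKM left 266 genes with a genotype difference, and leaving out 1 floxed library gave 230 to 503 of them. Leaving out 1 library gave 2694 to 3607 genes called, 990 to 1248 higher and 1694 to 2375 lower. Ctcf, not called in any alternative, had -0.0018 after quantile normalization, -0.0037 with all 24 libraries, -0.0039 without both libraries high in Ovgp1, -0.0078 with array weights, and -0.015 to 0.050 with 1 library left out. Mki67 and Top2a, not called, turned positive on the RPKM scale (4.80 and 6.11 RPKM), with array weights (0.17 and 0.040) and without progesterone library 1 (0.83 and 0.84). With 1 library left out they ranged from -0.89 to 0.83 and from -1.31 to 0.84. Gli1 ranged from -0.032, without progesterone library 1, to 0.11. Of 104 called genes named, 9 lost the call without at least 1 library, and 12 lost it with all 24 libraries, where the vehicle mean comes from both batches. The labels do not say whether library numbers pair progesterone and vehicle samples. Only 2 numbers are shared, and deviations correlated at -0.257 for number 1 with 1b and at 0.552 for number 2, which cannot decide it. With a replicate block over these numbers 4548 genes were called, 1645 higher and 2903 lower. Depth is an estimate from the steps of low values. On the RPKM scale Aldh1a1, Fgf9, Lgr5 and Wnt7b also lost the call (adjusted p = 0.0829, 0.115, 0.324 and 0.0936). The fit on that scale, too, takes its spread from floxed and knockout libraries together. With all 24 libraries Serpina3n and Per1 lost the call (adjusted p = 0.111 and 0.206). What the correction added is unknown for nearly all tested genes, so ratios are uncertain, above all for genes near 0, such as Areg, Pate4, Dio2, Gabrp, Cdh10 and Hhip. The causes of these changes were not tested.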

Other observations

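The counts of other lists are read against 9.83% higher and 16.8% lower over all tested genes. Of 28 matrix and remodelling genes 1 was higher and 8 were lower, with a median log2 fold change of -0.26, and 5 were lower without vehicle library 3. Of 13 genes of the insulin-like growth factor system 1 was higher and 5 lower, and 2 were lower without progesterone library 9 and 3 without vehicle library 3 or 4. Of 15 TGF-beta genes 3 were higher and 6 lower. Vascular signalling genes were divided, 6 of 26 higher and 5 lower. Of 18 p53 targets 6 were higher and 2 lower, and 1 was lower without progesterone library 9 or vehicle library 3. Of 18 genes of the integrated stress response 3 were higher and 0 lower.

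Gland regulators and products had 4 of 12 higher and 2 lower. Markers of simple epithelium were called higher in 2 of 15 and lower in 2, and markers of stroma in 2 and 2 of 13, where the higher stromal genes were Hoxa10 and Hoxa11. Of 11 smooth muscle markers 1 was higher and 0 lower. Of 9 adipose and 4 oviduct markers tested 0 were called by limma, with 0 at an unadjusted p under 0.05. Of 3 ovary markers tested 2 were lower (Foxl2 and Inha, which the lists of uterine transcription factors and of the activin system also hold), and the summed level of the 3 was 15.2 to 23.4 RPKM after progesterone and 24.7 to 28.4 RPKM after vehicle. Of 6 mesothelium markers 2 were lower (Upk3b and Lrrn4, median log2 fold change -0.53), with sums of 105 to 160 RPKM after progesterone and 119 to 154 RPKM after vehicle. The part of these tissues in other results was not tested. Krt5, a keratin of stratified epithelium, stood at 3.82 and 7.98 RPKM in vehicle libraries 1b and 2 and at -0.0401 RPKM in vehicle library 4. It lay between -4.56 and -3.62 RPKM in the rest, and as the batch correction sets the zero point, its sign does not show absence. Of 3 tested squamous markers 0 were called by limma, with 1 at an unadjusted p under 0.05.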
